A study of Homo sapiens with 6 samples.

Results

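The enzymes that make ceramide and turn it into sphingomyelin or glucosylceramide were followed in HT29 cells, a human line established from a colorectal adenocarcinoma, after knockdown of FITM2. The members are the 10 genes SPTLC1, SPTLC2, CERS2, CERS5, CERS6, DEGS1, SGMS1, SGMS2, UGCG and ASAH1, taken by gene name from the 58978 genes of the count table. All 10 passed the filter on low counts, among 14809 genes tested. RNA-seq was compared between untreated HT29 cells with a hairpin against FITM2 (shFITM2, genotype given as a knockdown, 3 libraries) and untreated HT29 cells with a control hairpin (shCTRL, genotype given as wild type, 3 libraries). The number and sequence of the hairpins, and whether each line is a clone, are not given in the labels. The series concerns lipid droplets, diacylglycerol of the trans-Golgi network and trafficking of the interferon-gamma receptor.

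Ceramide is built in the endoplasmic reticulum. Serine palmitoyltransferase condenses serine with palmitoyl-CoA, ceramide synthases attach a fatty acid, and a desaturase completes the ceramide, which is carried to the Golgi. There, sphingomyelin synthases move the phosphocholine of phosphatidylcholine onto ceramide and release diacylglycerol, while glucosylceramide synthase uses the same ceramide for glycolipids. In intestinal epithelium sphingolipids are abundant lipids of the apical membrane.

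In a fit with the hairpin group as the sole term (the group fit), mRNAs of 6 of the 10 enzymes were called lower in shFITM2 cells, those of SPTLC1, SPTLC2, DEGS1, CERS6, SGMS2 and UGCG, to between 71.4% and 80.8% of the shCTRL level, and CERS5 mRNA was called higher, at 129% of it. Calls required an adjusted p under 0.05 (edgeR's quasi-likelihood test, Benjamini-Hochberg over all tested genes). Across all tested genes 48.7% were called, 24.2% higher and 24.5% lower. When the libraries' trend with the GC content of the transcripts was removed (GC adjustment), CERS5 was the sole member still called in the same direction, at 127% of shCTRL, and CERS2 was called lower, at 84.8%. That adjusted fit called 29.2% of 14635 genes, 11.8% higher and 17.4% lower. Calls in the same direction in both fits covered 17.9%.

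The sequence before the RefSeq start of CERS5, the member called higher in both fits, and of SPTLC1 and SPTLC2, the paired subunits that were called lower together in the group fit, is shown for comparison. Each line holds the 250 bases before the transcription start (RefSeq, build GRCh38.p14, 5′ to 3′ on the gene's strand), with every GC box (GGGCGG or its reverse complement CCGCCC) and every CCAAT box (CCAAT or its reverse complement ATTGG) in capitals. The windows lie at chr12:50167370-50167619 (CERS5), chr9:92115414-92115663 (SPTLC1) and chr14:77616638-77616887 (SPTLC2), all on the minus strand. Part of the CERS5 and SPTLC2 windows lies inside the gene as the deposited table bounds it, where the gene starts upstream of the RefSeq start.
CERS5: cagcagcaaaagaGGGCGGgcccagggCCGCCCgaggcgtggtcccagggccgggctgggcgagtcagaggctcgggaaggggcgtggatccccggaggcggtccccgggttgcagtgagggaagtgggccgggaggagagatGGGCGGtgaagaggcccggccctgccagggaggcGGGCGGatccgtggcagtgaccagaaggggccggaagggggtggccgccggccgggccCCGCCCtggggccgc
SPTLC1: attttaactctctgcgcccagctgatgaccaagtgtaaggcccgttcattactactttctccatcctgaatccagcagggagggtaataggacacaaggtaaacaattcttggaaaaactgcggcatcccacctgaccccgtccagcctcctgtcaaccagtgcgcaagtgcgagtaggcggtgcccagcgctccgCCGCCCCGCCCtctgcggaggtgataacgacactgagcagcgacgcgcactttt
SPTLC2: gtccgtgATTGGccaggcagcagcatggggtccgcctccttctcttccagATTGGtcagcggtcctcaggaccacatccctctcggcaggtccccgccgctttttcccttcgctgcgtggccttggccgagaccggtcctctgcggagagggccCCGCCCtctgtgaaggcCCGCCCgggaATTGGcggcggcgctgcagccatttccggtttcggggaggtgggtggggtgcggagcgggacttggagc
The CERS5 window held 5 GC boxes and no CCAAT box, and 76.8% of its bases were G or C. SPTLC1 had 2 overlapping GC boxes, no CCAAT box and 56.4% G or C, and SPTLC2 had 2 GC boxes, 3 CCAAT boxes and 68.4% G or C. Of the other members called lower in the group fit, DEGS1 and UGCG had windows nearer to that of CERS5 in G or C content. DEGS1 had 4 GC boxes before 1 start and 0 before another (76.8% and 80.4% G or C). UGCG had 3 GC boxes (78.4%) and CERS6 had 3 (70.4%), whereas the SGMS2 windows had 0 to 2 (38.0% to 67.2%). Of 35116 windows of the same length, 42.6% held a GC box and 32.0% a CCAAT box, and their median G or C content was 58.0%. The table held 11 start sites for 8 of the members, of which 8 windows had a GC box and 3 a CCAAT box. CERS2 and ASAH1 are named only. A match of letters describes the window and does not show binding.

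FITM2, an endoplasmic reticulum protein required for lipid droplet budding, had 4.83, 5.98 and 4.95 CPM in the shFITM2 libraries, against 13.2, 10.5 and 10.4 CPM in shCTRL libraries. CPM is the read count of a gene relative to the TMM-scaled size of its library. The FITM2 groups did not overlap, and its mRNA was 46% of the shCTRL level (log2 fold change −1.12 ± 0.157, SE, adjusted p = 0.000242). A CPM value is a share of the library, so fewer cells of a type and less RNA per cell cannot be told apart. The libraries held 16964075 to 18263911 counts in shFITM2 and 17176487 to 18855731 in shCTRL. Of 10 colon epithelial markers, 9 averaged at least 1 CPM over all 6 libraries, and their sum was 13300 to 14000 CPM in shFITM2 and 9750 to 11700 CPM in shCTRL. KRT8 made up most of that sum, at 8380 CPM on average in shFITM2 and 6140 in shCTRL. Averages were also higher in shFITM2 for KRT18 (3440 CPM against 2720 in shCTRL), LGALS4 (477 against 355) and KRT20 (321 against 245). The same held for VIL1 (116 against 92.3), CEACAM5 (20.4 against 14.9) and CDX2 (1.72 against 0.817). EPCAM averaged 549 CPM in shFITM2 and 634 in shCTRL, and CDH1 347 in shFITM2 and 349 in shCTRL. CDX1 was near 0, at 0.452 CPM on average in shFITM2 and 0.841 in shCTRL. These marker values carry no GC adjustment, and the part of the markers in the members' changes was not tested. Fibroblast markers summed to 0.988 to 1.18 CPM in shFITM2 and 0.433 to 2.52 CPM in shCTRL, and endothelial markers to 0.767 to 1.21 CPM in shFITM2 and 0.795 to 1.41 CPM in shCTRL, with COL1A2, PDGFRB and KDR at 0 counts. Of the immune markers 4 were under 1 CPM, and the fifth, LYZ, which intestinal secretory cells also make, averaged 902 CPM in shFITM2 and 842 CPM in shCTRL. The slope of log2 expression on GC content, per 10 percentage points, was 0.26, 0.23 and 0.18 in shFITM2 and −0.27, −0.34 and −0.06 in shCTRL, so shCTRL replicate 3 stood apart from the other shCTRL libraries.

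Counted per length of the deposited table, CERS2 was the most abundant member and SGMS1 the least in both groups. On the FPKM scale (CPM per kilobase of the gene length in the deposited table), shFITM2 means ran down from CERS2 at 30.6 ± 0.783 over SPTLC1 at 19.4 ± 1.26, SPTLC2 at 17.2 ± 0.13, CERS6 at 10.8 ± 0.577, UGCG at 7.41 ± 0.497, DEGS1 at 5.43 ± 0.771, ASAH1 at 4.44 ± 0.111, CERS5 at 3.9 ± 0.141 and SGMS2 at 3.34 ± 0.305 to SGMS1 at 2.67 ± 0.186 (SD, n = 3). The order in shCTRL was the same except that SGMS2, at 4.68 ± 0.321 FPKM, stood above CERS5, at 3.03 ± 0.269. In shCTRL the neighbours ASAH1 (5.08 ± 0.617 FPKM) and SGMS2, and CERS5 and SGMS1 (2.85 ± 0.0632 FPKM), differed by less than the larger of their SDs, which held for no neighbours in shFITM2. The length in the table counts every annotated exon, which for ASAH1 comes to 15378 bases against 3042 in its longest coding transcript. With the length of 1 GENCODE transcript per gene, SPTLC1 was highest, at 66.5 FPKM in shFITM2 and 87.0 in shCTRL, CERS2 followed at 55.8 in shFITM2 and 55.5 in shCTRL, and ASAH1 moved up behind CERS2, at 22.4 in shFITM2 and 25.7 in shCTRL. On that scale SGMS2 was lowest in shFITM2, at 4.15 FPKM beside 4.58 for SGMS1, while SGMS1 was lowest in shCTRL, at 4.89 beside 5.81 for SGMS2.

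**Figure D1:**
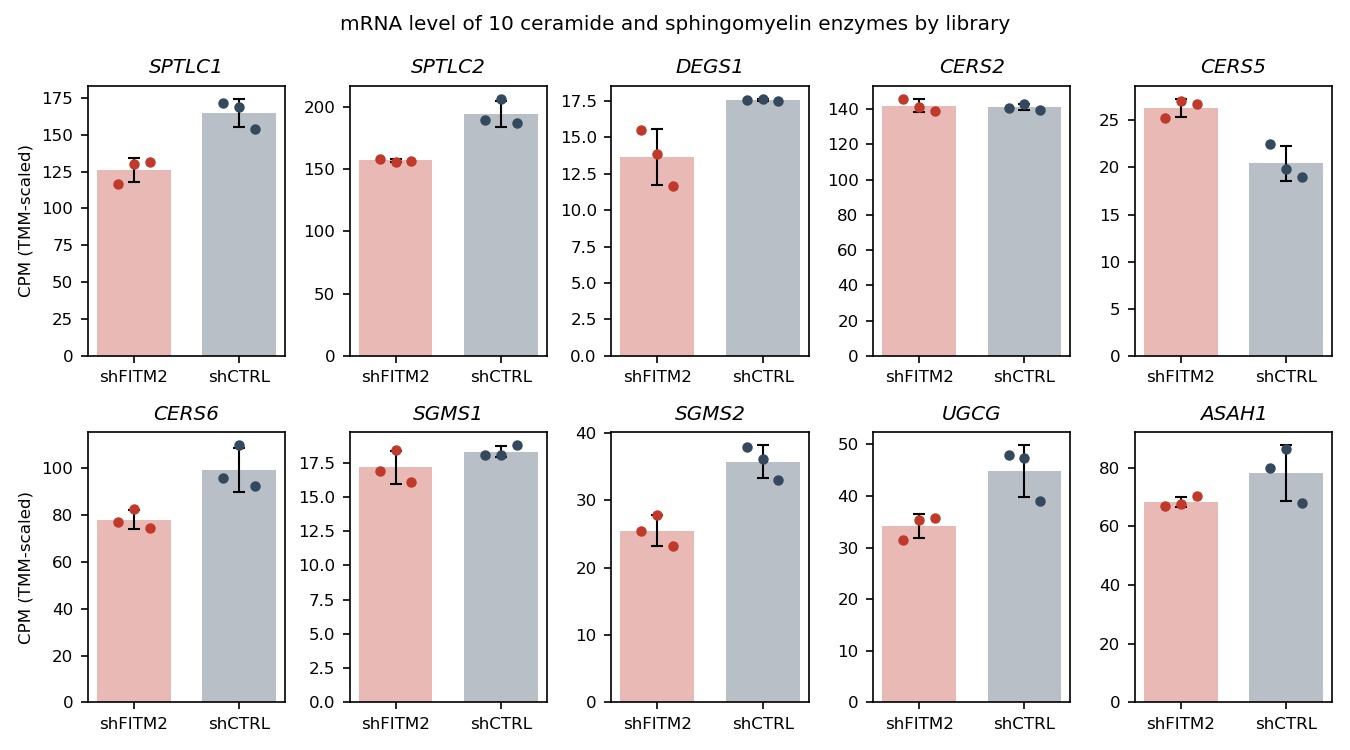
TMM-scaled CPM of each member in every library (points), with the group mean (bar) and SD (line), n = 3 per group, shFITM2 left of shCTRL; each panel has its own axis from 0. The groups do not overlap for SPTLC1, SPTLC2, DEGS1, CERS5, CERS6, SGMS2 and UGCG, and CERS5 is the one of these that is higher in shFITM2.

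The CPM of the groups did not overlap for 7 members, a separation that 59% of all tested genes showed. SPTLC1 and SPTLC2 encode the large subunits of serine palmitoyltransferase, the first and rate-limiting enzyme of the pathway. SPTLC1 (ENSG00000090054, chromosome 9, 92000087 to 92115384, minus strand, GRCh38) had 117, 130 and 131 CPM in shFITM2, against 172, 169 and 154 CPM in shCTRL. Its log2 fold change was −0.39 ± 0.0752 (SE; adjusted p = 0.00151, edgeR). SPTLC2 (ENSG00000100596, chromosome 14, 77505997 to 77616773, minus strand) had 158, 156 and 157 CPM in shFITM2, against 189, 206 and 187 CPM in shCTRL. Every shFITM2 library lay below every shCTRL library for both subunits, and the SPTLC2 values varied less among the shFITM2 libraries (SD 1.18 CPM) than among the shCTRL libraries (SD 10.5 CPM). The SPTLC2 log2 fold change was −0.31 ± 0.066 (adjusted p = 0.00272, edgeR). SPTLC1 made up 53.1% ± 1.82 of the summed FPKM of the pair in shFITM2 and 54.5% ± 1.47 in shCTRL (SD, n = 3), shares that differed by less than their spread. By the length of 1 transcript per gene these shares were 77.6% ± 1.28 in shFITM2 and 78.5% ± 0.991 in shCTRL. SPTLC1 has 5 named pseudogenes in the table, to which 60 reads were assigned in all 6 libraries together.

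After GC adjustment the SPTLC1 log2 fold change was −0.13 ± 0.0509 (adjusted p = 0.0643, edgeR) and that of SPTLC2 was −0.09 ± 0.0472 (adjusted p = 0.171). GC-adjusted SPTLC1 was 130, 142 and 141 CPM in shFITM2 and 155, 149 and 149 CPM in shCTRL, groups that still did not overlap. Adjusted groups did not overlap for 3 members, SPTLC1, CERS2 and CERS5, against 43.3% of all genes, and overlapped for the other 7. Without shCTRL replicate 3 the GC-adjusted SPTLC1 change was −0.14 and was called (adjusted p = 0.0123, edgeR). That omission also raised the GC-adjusted calls over all genes from 4275 to 5618. With any other single library left out, GC-adjusted SPTLC1 was not called (adjusted p from 0.0704 to 0.302).

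DEGS1, the desaturase that places the double bond of ceramide, was the member with the fewest reads, from 197 to 282 in shFITM2 libraries and from 298 to 331 in shCTRL libraries. The gene (ENSG00000143753, chromosome 1, 224175756 to 224193441, plus strand) had 15.5, 13.9 and 11.6 CPM in shFITM2, against 17.5, 17.6 and 17.5 CPM in shCTRL. The shFITM2 libraries varied more among themselves than the shCTRL libraries, with an SD of 1.94 CPM against 0.0771 CPM. The log2 fold change was −0.36 ± 0.12 (adjusted p = 0.027, edgeR) and −0.13 ± 0.117 after GC adjustment (adjusted p = 0.443). The call in the group fit was lost without shFITM2 replicate 2, shFITM2 replicate 3 or shCTRL replicate 1 (adjusted p = 0.0726, 0.111 and 0.0679).

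The ceramide synthases differ in the fatty acid they attach. CERS2 uses very long chains, and CERS5 and CERS6 use mainly palmitate. CERS5 (ENSG00000139624, chromosome 12, 50129306 to 50167533, minus strand) had 25.3, 27.0 and 26.7 CPM in shFITM2, against 22.5, 19.8 and 19 CPM in shCTRL. All shFITM2 libraries were above all shCTRL libraries. Its log2 fold change was 0.37 ± 0.0991 (adjusted p = 0.00987, edgeR) and 0.35 ± 0.0906 after GC adjustment (adjusted p = 0.00857). The group-fit call was lost without shFITM2 replicate 2 (0.34, adjusted p = 0.0524), whereas the GC-adjusted call held without any single library, with adjusted p from 0.00866 to 0.0491.

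CERS6 (ENSG00000172292, chromosome 2, 168455862 to 168775137, plus strand) had 77.1, 82.5 and 74.3 CPM in shFITM2, against 95.6, 110 and 92.2 CPM in shCTRL. Its groups did not overlap, and the log2 fold change was −0.35 ± 0.084 (adjusted p = 0.00544, edgeR). The GC-adjusted value was −0.04 ± 0.0624 (adjusted p = 0.695). Thus CERS5 and CERS6, which share a substrate preference, were called in opposite directions in the group fit, and CERS5 alone of them after GC adjustment. The difference between their changes was not tested.

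CERS2 (ENSG00000143418, chromosome 1, 150960583 to 150975004, minus strand) had 146, 141 and 139 CPM in shFITM2, against 141, 143 and 140 CPM in shCTRL, overlapping groups. The log2 fold change of CERS2 stood at 0.01 ± 0.0633 (adjusted p = 0.927, edgeR). Its transcript is the richest in GC among the members, at 53.8%. GC-adjusted CERS2 was 132, 130 and 129 CPM in shFITM2 and 155, 162 and 145 CPM in shCTRL. These adjusted groups did not overlap, and the log2 fold change was −0.24 ± 0.0512 (adjusted p = 0.00247). CERS2 shares 948 exon bases with SETDB1 on the opposite strand, which had 3547 reads against 15144 for CERS2 over all libraries. The strand setting of the counting is not given in the sources used here, so reads of the pair may be mixed.

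Within the summed FPKM of CERS2, CERS5 and CERS6, CERS5 held 8.17%, 8.75% and 8.98% in shFITM2, against 7.11%, 6.00% and 6.17% in shCTRL. The mean difference was 2.2 percentage points, and 2.55 points on GC-adjusted values. CERS6 held 23.8% ± 0.944 in shFITM2 and 29% ± 1.7 in shCTRL (SD, n = 3), a difference of −5.23 points that was 1.85 points on GC-adjusted values, so its direction turned. CERS2 held 67.6% ± 1.13 in shFITM2 and 64.5% ± 1.47 in shCTRL, a difference of 3.03 points that was −4.41 points on GC-adjusted values and 0.925 points with the length of 1 transcript per gene. These shares are descriptions without a test.

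**Figure D2:**
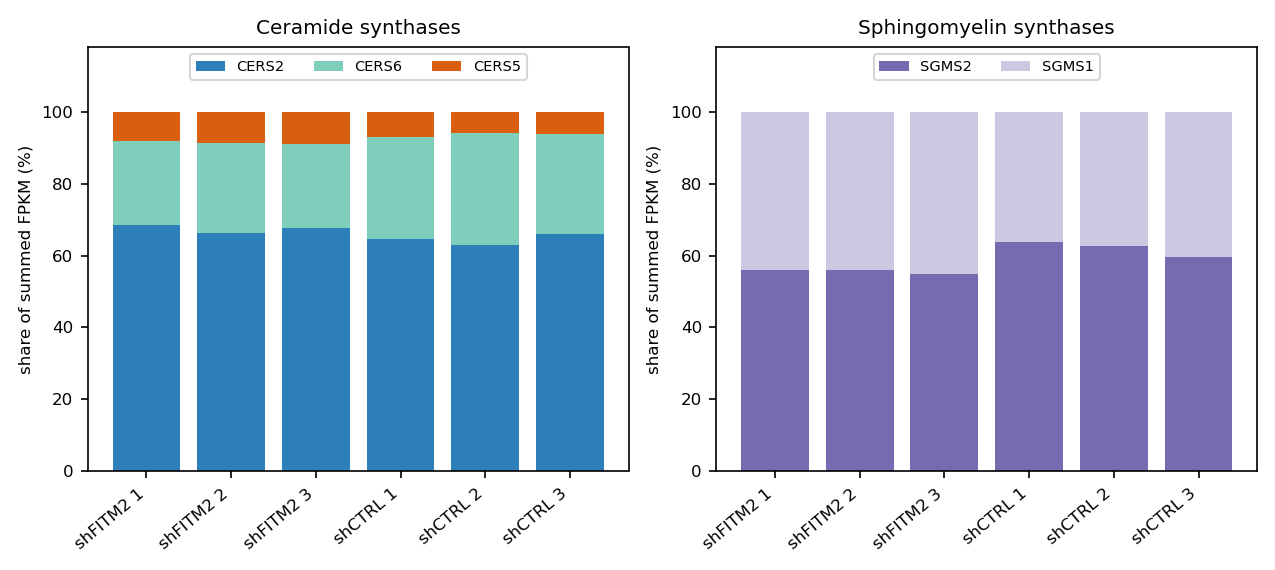
Share of summed FPKM (CPM per kilobase of gene length, without GC adjustment) held by each ceramide synthase (left) and each sphingomyelin synthase (right), 1 bar per library, shFITM2 left of shCTRL. CERS5 holds 8.17% to 8.98% in shFITM2 and 6.00% to 7.11% in shCTRL, and SGMS2 holds 54.8% to 56.0% in shFITM2 and 59.7% to 63.9% in shCTRL.

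SGMS1 and SGMS2 are the sphingomyelin synthases, the members whose reaction releases diacylglycerol. SGMS1 protein is found at the trans-Golgi, and SGMS2 mainly at the plasma membrane. SGMS1 (ENSG00000198964, chromosome 10, 50305586 to 50625163, minus strand) had 16.9, 18.5 and 16.1 CPM in shFITM2, against 18.1, 18.1 and 18.8 CPM in shCTRL. The groups overlapped and the gene was not called, its log2 fold change being −0.09 ± 0.101 (adjusted p = 0.471, edgeR) and 0.18 ± 0.101 after GC adjustment (adjusted p = 0.215). SGMS1 shares 207 exon bases with SGMS1-AS1 on the opposite strand, which had 240 reads against 1897 for SGMS1.

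SGMS2 (ENSG00000164023, chromosome 4, 107824563 to 107915047, plus strand) had 25.5, 27.8 and 23.2 CPM in shFITM2, against 37.9, 36.1 and 33.1 CPM in shCTRL. It had the lowest log2 fold change of the members in the group fit, −0.49 ± 0.0995 (adjusted p = 0.00208, edgeR), and every shFITM2 library lay below every shCTRL library. By 1 transcript per gene, SGMS2 is also the member lowest in GC, at 36.8%. Averaged over all coding transcripts its GC content was 41.3%, beside 40.8% for CERS6 and 40.9% for UGCG. GC-adjusted values were 31.1, 32.7 and 26.0 CPM in shFITM2 and 32.1, 28.5 and 30.9 CPM in shCTRL, overlapping groups with a log2 fold change of −0.03 ± 0.093 (adjusted p = 0.866). SGMS2 held 55.6% ± 0.67 of the summed FPKM of SGMS1 and SGMS2 in shFITM2 and 62.1% ± 2.13 in shCTRL (SD, n = 3). That difference of −6.55 percentage points was −3.42 points on GC-adjusted values. By the length of 1 transcript per gene SGMS2 held 47.5% ± 0.676 in shFITM2 and 54.3% ± 2.24 in shCTRL, so which of the pair holds more in shFITM2 depends on the length used.

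UGCG, glucosylceramide synthase, takes ceramide toward glycolipids on the cytosolic side of the Golgi. The gene (ENSG00000148154, chromosome 9, 111896766 to 111935369, plus strand) had 31.6, 35.4 and 35.7 CPM in shFITM2, against 48, 47.3 and 38.9 CPM in shCTRL. The groups did not overlap, although shCTRL replicate 3 lay nearer to shFITM2 than to the other shCTRL libraries. The log2 fold change was −0.39 ± 0.102 (adjusted p = 0.00827, edgeR) and −0.05 ± 0.0766 after GC adjustment (adjusted p = 0.647). Without shFITM2 replicate 1 the group-fit call was lost (−0.34, adjusted p = 0.0505).

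ASAH1, the lysosomal acid ceramidase, breaks ceramide into sphingosine and a fatty acid. The gene (ENSG00000104763) had 67.0, 67.5 and 70.2 CPM in shFITM2, against 80.1, 86.5 and 67.8 CPM in shCTRL. The value of shCTRL replicate 3 fell among the shFITM2 values, and ASAH1 was not called, at −0.20 ± 0.0915 (adjusted p = 0.0969, edgeR) and 0.09 ± 0.0623 after GC adjustment (adjusted p = 0.293). Without shCTRL replicate 3 it was called lower in the group fit (−0.29, adjusted p = 0.000195).

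**Figure D3:**
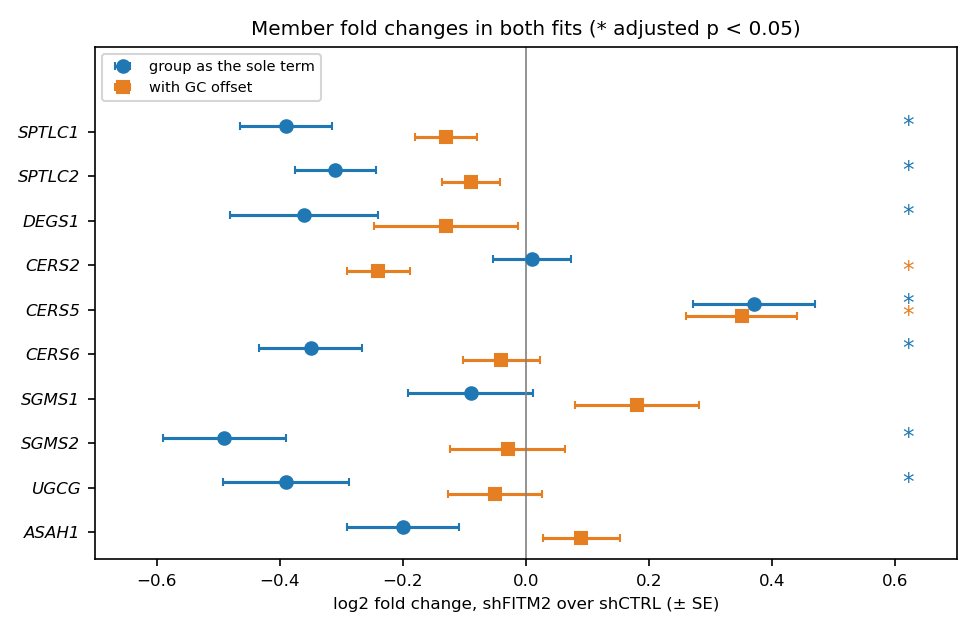
Log2 fold change of each member, shFITM2 over shCTRL, with its standard error, in the fit with group as the sole term (circles) and after GC adjustment (squares); an asterisk of the same colour marks an adjusted p under 0.05. CERS5 has both asterisks, at 0.37 and 0.35, and the 6 members called lower in the group fit lie between −0.13 and −0.03 with GC adjustment.

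Most members have transcripts of low GC content, with CERS5 (49.1%) and CERS2 (53.8%) as the exceptions. GC content was taken from 1 GENCODE 29 transcript per gene, and 8 of the 10 members lay below 45%, against 36.4% of all tested genes. The members ran from 36.8% for SGMS2 to 53.8% for CERS2, and the median of tested genes was 48.7%. Log2 fold changes in the group fit followed GC content across all genes, which are not independent replicates and share the same 6 libraries (Spearman correlation 0.744, n = 14635, given as a description). Among the 1464 genes from 41.2% to 43.4% GC, the median log2 fold change was −0.31 and 47.2% were called lower.

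The 6 members called lower lay close to genes of like GC content. SGMS2 had −0.49, and the median of the 645 tested genes within 1 percentage point of its GC content was −0.48. CERS6 had −0.35 beside a median of −0.36 (1274 genes), and UGCG −0.39 beside −0.38 (1276 genes). SPTLC1 had −0.39 beside −0.28 (1254 genes), SPTLC2 −0.31 beside −0.25 (1252 genes) and DEGS1 −0.36 beside −0.25 (1267 genes), all between the quartiles of those genes. CERS5 was above the upper quartile of its neighbours, at 0.37 beside a median of −0.02 and that quartile at 0.19 (894 genes). CERS2 was below the lower quartile of 0.02, at 0.01 beside a median of 0.23 (874 genes), and SGMS1 was above the upper quartile of −0.10, at −0.09 beside a median of −0.29 (1299 genes). Adjustment takes out whatever follows GC content, a cellular change included. The part of GC content in the members' changes beyond these values was not tested.

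**Figure D4:**
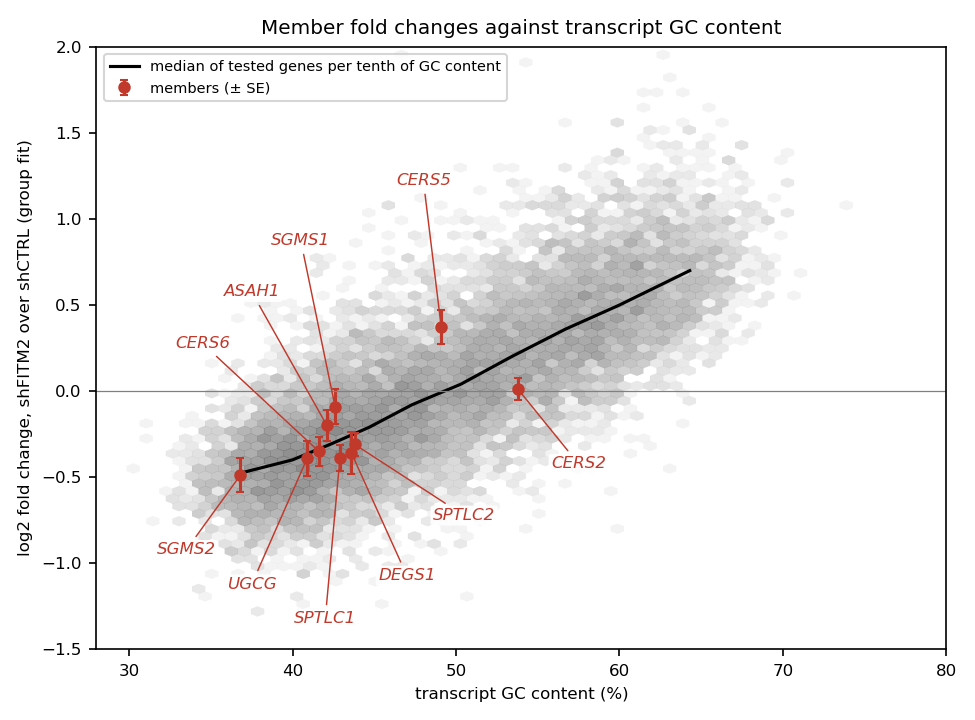
Log2 fold change in the group fit (shFITM2 over shCTRL) against transcript GC content for tested genes (grey density on a log scale; genes beyond the axis limits are not drawn), the medians of 10 equal bins of genes by GC content (line) and the members (red points with standard errors). Most members lie near the line, with CERS5 above it at 49.1% GC, SGMS1 above it at 42.6% GC and CERS2 below it at 53.8% GC.

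Among the other 63 sphingolipid genes listed, 56 were tested, of which 19 were called higher and 14 lower in the group fit (24.2% and 24.5% of all tested genes). After GC adjustment 9 were higher and 11 lower (11.8% and 17.4% of all genes in that fit). In both fits alike, 6 genes were higher and 5 lower, where 17.9% of all genes were called alike. These shares over all genes are also the background of the counts by role below, and no role was tested against them. The median log2 fold change was 0.14 in the group fit and 0.05 after adjustment, beside 0.00 and −0.03 over all tested genes, and beside −0.33 and −0.05 over the 10 members. Paired values of a pathway gene are its log2 fold changes in the group fit and after GC adjustment, in that order, each with its edgeR adjusted p.

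Among the regulators of the first step, ORMDL2 and ORMDL3 were called higher in both fits. ORMDL proteins are inhibitory partners of serine palmitoyltransferase in the endoplasmic reticulum. ORMDL2 had 21.0, 20.6 and 22.8 CPM in shFITM2, against 13.4, 10.8 and 12.4 CPM in shCTRL. ORMDL3 had 87.7, 85.5 and 74.6 CPM in shFITM2, against 54.0, 55.8 and 51.3 CPM in shCTRL. All shFITM2 libraries were above all shCTRL libraries for both genes. ORMDL2 rose by 0.81 ± 0.114 on the log2 scale and by 0.88 ± 0.106 after GC adjustment (adjusted p = 0.000243 and 2.04e-05, edgeR), and ORMDL3 by 0.62 ± 0.0835 and 0.36 ± 0.0733 (adjusted p = 0.000194 and 0.00153). ORMDL1 had −0.36 ± 0.0893, called lower (adjusted p = 0.0064), and 0.15 ± 0.0664 after adjustment, not called (adjusted p = 0.101). ORMDL2 shares 920 exon bases with DNAJC14 on the opposite strand, which had 1848 reads against 1790 for ORMDL2, so its reads may be mixed with those of DNAJC14. The ORMDL genes were listed in 1 group with further enzymes and subunits of ceramide synthesis. Of the 9 tested genes of that group, 3 were higher and 2 lower, and 2 higher and 1 lower after adjustment. The gene lower after adjustment was DEGS2, which averaged 44.7 CPM in shFITM2 and 40 CPM in shCTRL. Its log2 fold change was 0.16 ± 0.117 in the group fit and −0.63 ± 0.0735 after adjustment (adjusted p = 0.283 and 1.5e-05, edgeR). CERS1, CERS3 and CERS4, the other ceramide synthases, did not pass the filter on low counts.

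Most genes of ceramide and glycolipid transfer were called in the group fit, in differing directions, and 0 after GC adjustment. CERT1, listed as COL4A3BP, moves ceramide to the trans-Golgi where SGMS1 uses it, and VAPA and VAPB are its anchors on the endoplasmic reticulum. CERT1 had 48.6, 51.8 and 52.0 CPM in shFITM2, against 65.1, 65.3 and 54.4 CPM in shCTRL, the COL4A3BP log2 fold change being −0.28 ± 0.0896 (adjusted p = 0.023, edgeR) and 0.05 ± 0.0641 after adjustment (adjusted p = 0.604). The group-fit call of COL4A3BP was lost when any library other than shCTRL replicate 3 was left out, with adjusted p from 0.0556 to 0.0987. VAPA had −0.38 and 0.06 (adjusted p = 0.000733 and 0.364) and VAPB −0.33 and −0.14 (adjusted p = 0.0038 and 0.0623). Of these 6 genes, 1 was higher and 4 lower in the group fit, and 0 were called after adjustment (edgeR), where 1 had an unadjusted p under 0.05.

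Downstream of ceramide, several genes of sphingosine metabolism were called in both fits. SPHK2, a sphingosine kinase, had 209, 207 and 193 CPM in shFITM2, against 89.4, 80.3 and 115 CPM in shCTRL, and rose by 1.10 ± 0.119 and by 0.42 ± 0.0468 after adjustment (adjusted p = 0.000129 and 1.01e-05, edgeR). SPHK2 shares 246 exon bases with RPL18 on the opposite strand, which had 136619 reads against 15806 for SPHK2, so its reads may be mixed with those of RPL18. SGPL1, the lyase that ends the pathway, had 0.22 and 0.29 (adjusted p = 0.0251 and 0.000701), and the ceramidase gene ACER2 0.47 and 0.50 (adjusted p = 0.0334 and 0.0257). ASAH2B, of the neutral ceramidase family, had −0.84 and −0.43 (adjusted p = 0.00026 and 0.00654), and ALDH3A2, a fatty aldehyde dehydrogenase, −0.36 and −0.26 (adjusted p = 0.00424 and 0.00618). SPNS2, an exporter of sphingosine phosphate, had 0.88 and 0.14 (adjusted p = 3.07e-05 and 0.163). Both ACER2 calls were lost without each of the shFITM2 replicates and without shCTRL replicate 1, when left out one at a time, and the group-fit SGPL1 call without any one of the shFITM2 replicates. Of 13 tested genes of this group, 5 were higher and 3 lower, and 4 and 3 after adjustment. Over all genes the shares were 24.2% and 24.5%, and 11.8% and 17.4% after adjustment.

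Sphingomyelin breakdown held the pathway genes called in opposite directions by the 2 fits, SMPD3 and SMPD4. These were 2 of 56 tested pathway genes, beside 314 of the 14635 genes tested in both fits. SMPD3, a neutral sphingomyelinase, had 0.38 ± 0.0859 (adjusted p = 0.00344, edgeR) and −0.20 ± 0.049 after adjustment (adjusted p = 0.00569). SMPD4, another neutral sphingomyelinase, had 0.20 and −0.36 (adjusted p = 0.0453 and 0.000165), and SMPD2 0.34 and −0.24 (adjusted p = 0.037 and 0.11). The transcripts of these 3 genes held 60.5% to 61.1% GC. The group also lists sphingomyelinase-like genes. Of its 6 tested genes, 3 were higher and 0 lower in the group fit (edgeR, 4 and 0 at an unadjusted p under 0.05). After adjustment 0 were higher and 3 lower (0 and 4 unadjusted). These 3 include the sphingomyelinase-like SMPDL3B, which had −0.21 and −0.56 (adjusted p = 0.195 and 0.00265, edgeR). The group-fit calls of SMPD2 and SMPD4 were also lost when any library other than shCTRL replicate 3 was left out, and in the DESeq2 Wald test (adjusted p = 0.0535 and 0.0645).

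Among the genes that build glycolipids on ceramide, B3GALT4, a galactosyltransferase of gangliosides, rose by 1.21 ± 0.131 and by 0.48 ± 0.129 after adjustment (adjusted p = 6.83e-05 and 0.0108, edgeR), and the second call was lost without shFITM2 replicate 3 (adjusted p = 0.0683). UGT8, which adds galactose to ceramide, had log2 fold changes of −0.59 and, after adjustment, −0.29 (adjusted p = 0.000324 and 0.00132). A4GALT, of the globoside branch, had 0.49 and −0.12 (adjusted p = 0.00169 and 0.148). Of 10 tested genes of this group, 2 were higher and 3 lower, and 2 and 2 after adjustment. In glycolipid breakdown, a group of mostly lysosomal proteins, 5 of 12 genes were higher and 2 lower, and 1 and 2 after adjustment. The sialidase gene NEU3 had −0.38 and −0.39 (adjusted p = 0.00785 and 0.00339). PSAP, the precursor of the saposins, had 0.37 and 0.08 (adjusted p = 0.000353 and 0.212), and ARSA, arylsulfatase A, 0.95 and 0.15 (adjusted p = 0.00139 and 0.517). COL4A3BP, DEGS2, ORMDL1, SMPD2, SMPD3, SMPD4 and SPNS2 also share exon bases with genes on the other strand.

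**Figure D5:**
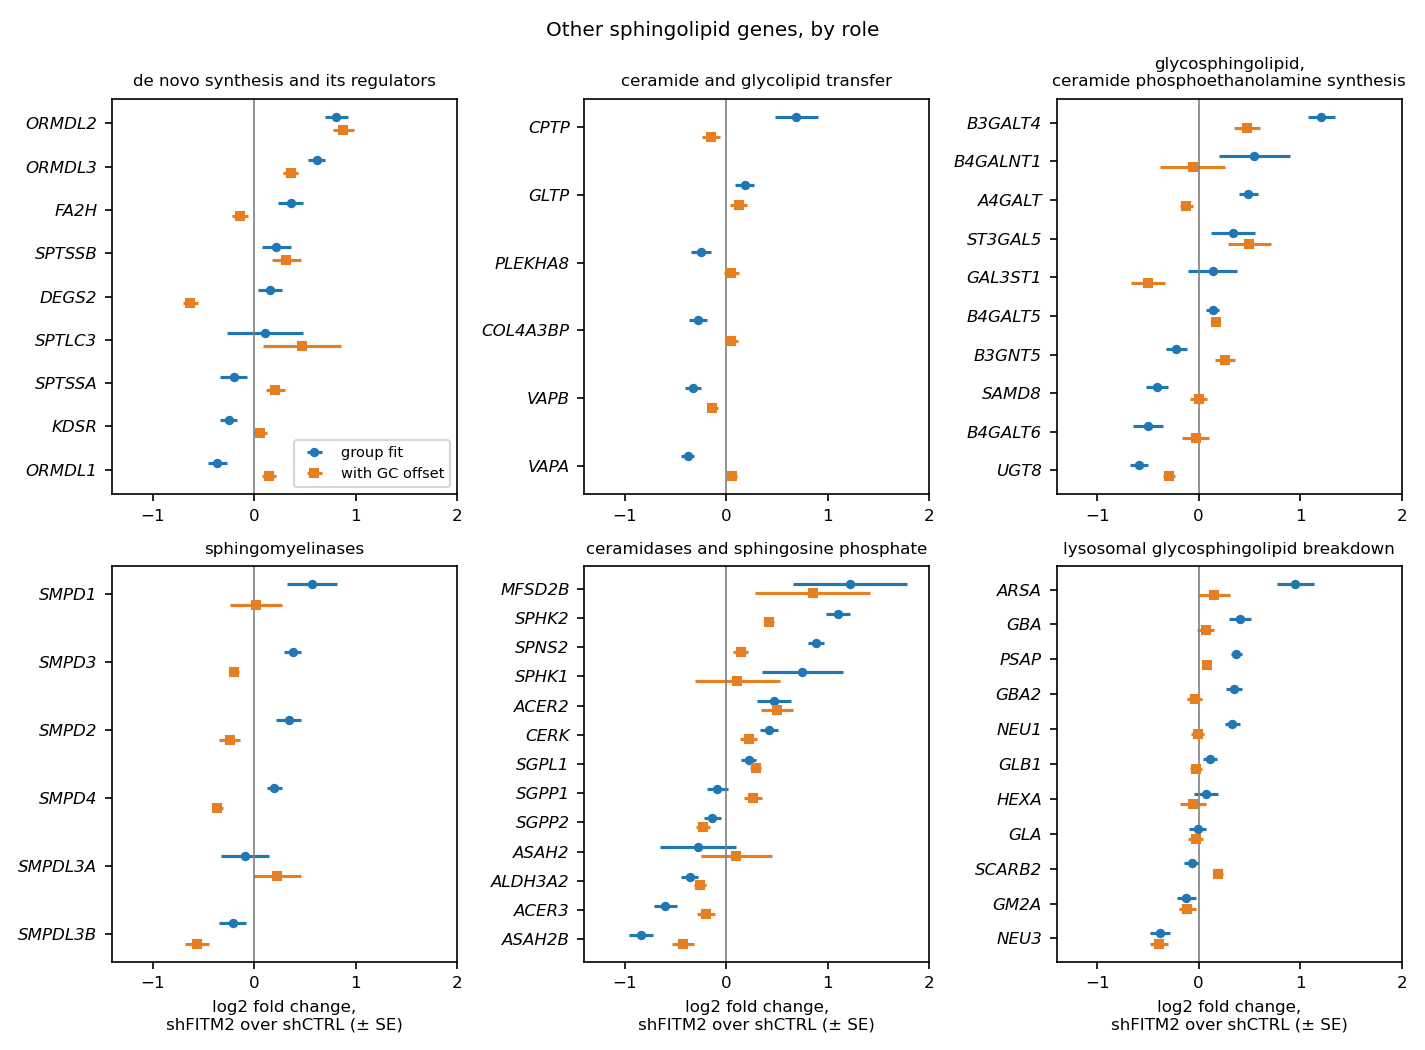
Log2 fold change, shFITM2 over shCTRL, with standard errors, for the tested sphingolipid genes outside the members, by role and with 1 gene not shown, in the group fit (circles) and after GC adjustment (squares). ORMDL2 and ORMDL3 lie above 0 in both fits, and SMPD2, SMPD3 and SMPD4 lie on opposite sides of 0.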

How the data were processed

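The authors deposited raw counts per gene in 1 table of all 6 libraries. Total RNA was made into libraries with a strand-keeping kit, per the labels' protocols. HISAT2 2.0.5, StringTie 1.3.3b, featureCounts 1.5.0-p3, DESeq2 1.16.1 and hg19 are named without roles, per the submitters' processing notes. All 58735 genes with a GENCODE 29 identifier have its GRCh38 position, so coordinates are GRCh38. The deposited gene length, another value of the authors, was used for FPKM. No label says that replicates came from separate cultures, so p-values measure only the spread between libraries, which may be technical. Replicate pairs differed by more than sampling noise (chi-square per gene 2.35 to 4.36 in shFITM2 and 5.6 to 28.6 in shCTRL).

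Genes passed edgeR's expression filter (minimum count 10, minimum total 15) and were tested with edgeR 4.0.16 (limma 3.58.1, R 4.3.3; quasi-likelihood, robust, TMM, group as the sole term), with Benjamini-Hochberg adjustment over all tested genes. A second fit carried as an offset the trend of each library's log2 CPM deviation (prior count 2) with transcript GC content, drawn by a spline of 6 degrees of freedom. The scripts were tested on simulated data. The members, lists and tests were chosen with earlier results of these data known. Named genes are the members, FITM2, up to 3 genes of each role with the smallest p, and genes called alike in both fits. DEGS2 and SMPDL3B were named in addition, with their results known. Alternatives were DESeq2 1.42.0 size factors, library totals, other filters, the DESeq2 Wald test, limma-voom, length in the offset, a replicate block, each library left out and, added after seeing the data, the mean GC content of all coding transcripts and other forms of the family shares. With 3 against 3 libraries an exact permutation test cannot fall below 0.1, and none was run. The values of 1 pathway gene are not reported here.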

Additional observations from a re-analysis of the deposited data

How the results depend on the processing

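The 7 member calls of the group fit were made under each other normalization, filter and test and with the replicate block. GC adjustment changed them, in that 2 members were called, 1 of them lower, and the count of pathway genes was 20 (9 higher) and of all genes 4275 (1732 higher), against 33 (19 higher) and 7205 (3583 higher) without it. With the offset the log2 fold change turned to −0.24 for CERS2, 0.18 for SGMS1, 0.0929 for ASAH1, 0.0636 for VAPA, 0.0509 for COL4A3BP, 0.15 for ORMDL1, −0.12 for A4GALT, −0.20 for SMPD3, −0.24 for SMPD2 and −0.36 for SMPD4. The cause was not tested. Taking the mean GC content of all coding transcripts turned CERS6 to 0.0361 and VAPA to −0.0567, GC-adjusted, and neither was called, while it added GC-adjusted calls of SPNS2 (0.18, adjusted p = 0.0393), A4GALT (−0.19, adjusted p = 0.0409) and PSAP (0.16, adjusted p = 0.00983).

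Leaving out 1 library at a time gave from 5338 called genes of 15188 (without shFITM2 replicate 1) to 9008 of 15255 (without shCTRL replicate 3) in the group fit. It gave 5 to 8 called members (8 without shCTRL replicate 3), 0 or 1 of them higher (0 without shFITM2 replicate 2). The CERS2 log2 fold change then ran from −0.015 to 0.0246. After GC adjustment leaving out 1 library gave 2 or 3 called members, 1 or 2 of them lower (2 without shCTRL replicate 3). The adjusted log2 fold change ran from −0.0824 to 0.0132 for CERS6 and from −0.10 to 0.0616 for SGMS2. The count of all genes called after adjustment was then 2806 to 5618, the lowest without shFITM2 replicate 1, and 1110 to 2332 of them were higher, the lowest without shFITM2 replicates 1 and 2 (1110 and 1130).

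The replicate block left 7 members called, 28 pathway genes and 6729 genes in all, and 2 members, 18 pathway genes and 4181 genes after GC adjustment. The calls of SGPL1, SMPD2 and SMPD4 in the group fit were lost with the block (adjusted p = 0.0606, 0.0576 and 0.0789, edgeR). Deviations of same-numbered libraries correlated at −0.041, −0.007 and −0.065, and no library correlated best with its own number, so the numbers were not taken to pair the samples. The lowest members, DEGS1 and SGMS1, rest on 197 to 341 reads per library, which limits how small a change could be called.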
